A study of Mus musculus with 10 samples.

Results

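The comparison described here is that of hippocampal cells tagged during an appetitive experience with hippocampal material of mice that stayed in their home cage (mock). Its members are the 2 libraries titled pos and the 3 libraries titled mock, 5 of the 10 libraries of the series, and every gene of the deposited count tables was examined. The other libraries are 2 aversive ones (foot shocks) and 3 neutral ones, which were made with a different kit. The aversive libraries serve below for a direct comparison with the appetitive ones.

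All mice were C57BL/6 wild-type males of 5 weeks. In the appetitive group the labels give 1 h with a female in a clean cage, whereas the study's methods describe a longer session. Ventral CA1 had received AAV9-c-Fos-tTA together with the reporter virus AAV9-TRE-ChR2-EYFP, and cells were tagged while doxycycline was withheld. The hippocampus was then dissected, dissociated and sorted for EYFP, and the labels give 8 pooled mice per experimental condition. The study calls the sorted material nuclei in its results and cells in its methods. The protocol text attached to the mock libraries is the same, but the study's methods call mock an untagged control, taken from fewer mice than there are mock libraries. Tagging, sorting and home-cage housing therefore cannot be told apart from the appetitive experience in this contrast, and whether the mock libraries came from separate animals is not settled by the labels. The labels do not say that the 2 appetitive libraries came from separate pools. In both groups n therefore counts libraries, and p-values measure the spread between libraries, which may be technical.

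Activity tagging borrows the promoter of an immediate early gene. Neuronal firing raises calcium and cAMP, which activate CREB and the serum response factor at the Fos promoter within minutes, and a transactivator placed under that promoter is made only in cells that were active. When doxycycline is absent, the transactivator binds its response element and drives the fluorescent reporter for days, long after endogenous Fos RNA has decayed.

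The promoter that gates the tag is shown first, since it decides which cells carry the tag. The 250 bases before the start of the mouse Fos gene (RefSeq, GRCm38.p6, chr12:85473640-85473889, plus strand) read as follows. Capitals mark TGACG, the core of the site bound by CREB and its relatives, and TATAAA, the TATA box.

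Fos upstream: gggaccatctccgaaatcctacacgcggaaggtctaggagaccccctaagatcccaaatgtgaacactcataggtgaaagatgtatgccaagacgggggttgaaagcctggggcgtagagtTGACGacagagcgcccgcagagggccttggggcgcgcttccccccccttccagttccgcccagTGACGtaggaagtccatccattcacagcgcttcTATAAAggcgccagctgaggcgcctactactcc

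TGACG occurs 2 times on the gene's strand, 129 and 66 bases before the start, and TATAAA 1 time, 33 bases before it. Neither was found on the opposite strand, and the motifs do not overlap. Of the upstream stretches of the same length at 32851 annotated starts, 17.8% hold TGACG and 12.4% hold TATAAA on either strand. The stretch used in the viral construct was not analysed here.

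No difference in endogenous Fos RNA was detected between the groups. Its level, in normalized CPM (counts scaled by the effective library size), was 1054 and 1530 in the appetitive libraries against 455, 1647 and 1592 in the mock libraries. Both appetitive values lay within the mock range. The log2 fold change was 0.07 ± 0.87 (SE) with an adjusted p of 0.969 (edgeR quasi-likelihood test, Benjamini-Hochberg over all genes tested, used for every adjusted p below unless another tool is named). Among 25 immediate early genes tested, none passed the adjusted threshold of 0.05. The median log2 fold change of this list was -1.25, or -0.88 with genes at 0 in both appetitive libraries set at their bound, against -1.45 for all genes tested. Dusp1, a phosphatase that ends MAP kinase signalling, stood at 535 and 521 CPM against 499, 2193 and 1082, and Jun, a partner of Fos in AP-1, at 340 and 206 CPM against 214, 652 and 1675. Arc, which acts at excitatory synapses, was the only member of the list whose appetitive values all exceeded the mock ones. It stood at 167 and 267 CPM against 25.8, 22.2 and 30.4, a log2 fold change of 3.05 ± 1.28 that missed the threshold (adjusted p = 0.185). Arc was chosen after its values were seen.

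Total counts were 26647573 and 16968588 in the appetitive libraries and between 20505550 and 49880042 in the mock libraries. The appetitive libraries held fewer genes. At least 1 count was found for 14144 and 14658 genes, against 20596 to 30899 in mock, and after thinning each library to 16968588 counts the numbers were 12761 and 14658 against 20238 to 27174. The gene Mbp alone took 30.8% of the counts of appetitive 1. Spearman's rho across genes was 0.606 between the appetitive libraries and between 0.910 and 0.922 among the mock libraries. The SMART-Seq counts are PCR copies without molecular identifiers, so that floors and intervals given below cover counting error only.

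The appetitive libraries disagreed with each other on which genes were present at all. Of 8249 genes with at least 10 CPM in 1 or both of them, 2633 (31.9%) had at most 3 counts in the other library. Of these, 917 were seen in appetitive 1 and 1716 in appetitive 2. Among pairs of mock libraries this share was between 0.0716% and 0.195%, and between the 2 aversive libraries it was 15.2%. Sv2a, a synaptic vesicle protein, shows the pattern, with 0 CPM in appetitive 1 and 181 CPM in appetitive 2 against 45.7, 36.6 and 120 CPM in mock. Its log2 fold change of 0.42 ± 1.74 (adjusted p = 0.898) describes neither appetitive library.

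**Figure D1:**
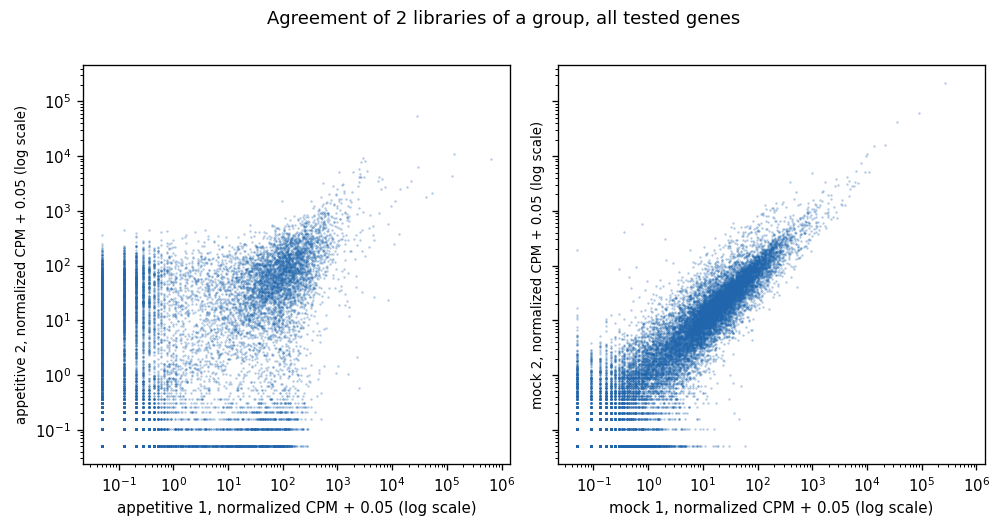
Normalized CPM + 0.05 of every gene tested in appetitive 1 against appetitive 2 (left) and in mock 1 against mock 2 (right), both axes on a log scale and each point 1 gene. In the appetitive panel 2633 genes with at least 10 CPM in 1 library lie along the axes with at most 3 counts in the other, and in the mock panel 18 do.

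The question of the contrast is which genes differ between cells tagged by female exposure and home-cage material. Of 19754 genes tested, 391 (1.98%) had an adjusted p under 0.05 and are termed called. In the appetitive libraries 387 genes (1.96%) fell and 4 (0.0202%) rose. At an unadjusted p under 0.05 the numbers were 4144 lower (21.0%) and 552 higher (2.79%). The median log2 fold change of all genes tested was -1.45, and -0.47 when genes at 0 in both appetitive libraries were set at the bound that 3 counts allow. It was -1.17 with RLE size factors and -1.93 with library size alone, so that fold changes are best read relative to this shift. No gene passed the stricter threshold used by the study (adjusted p under 1e-05 and more than 4-fold) in edgeR, in which the smallest adjusted p was 0.0296, whereas 814 did in DESeq2 on all 10 libraries. DESeq2 called 4803 genes at 0.05, 588 of them higher and 4215 lower, and all 391 genes called by edgeR were among them. The spread was estimated over all 10 libraries, and the edgeR calls depended on libraries outside the contrast too. A fit without the 3 neutral libraries called 0 genes (smallest adjusted p 0.125). Leaving out any 1 mock library had the same result. Without mock 1, mock 2 or mock 3 no gene was called (smallest adjusted p 0.0785, 0.0802 and 0.0937), although 3475, 3570 and 2894 genes remained lower at an unadjusted p under 0.05 and 106, 162 and 224 higher. Without appetitive 1 there were 635 calls and without appetitive 2 1426, with the lone appetitive library assumed to vary like the other groups. All 391 called genes kept their direction in every one of these fits. Both appetitive values of each lay beyond all mock values, so leaving out a library could hardly change it.

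**Figure D2:**
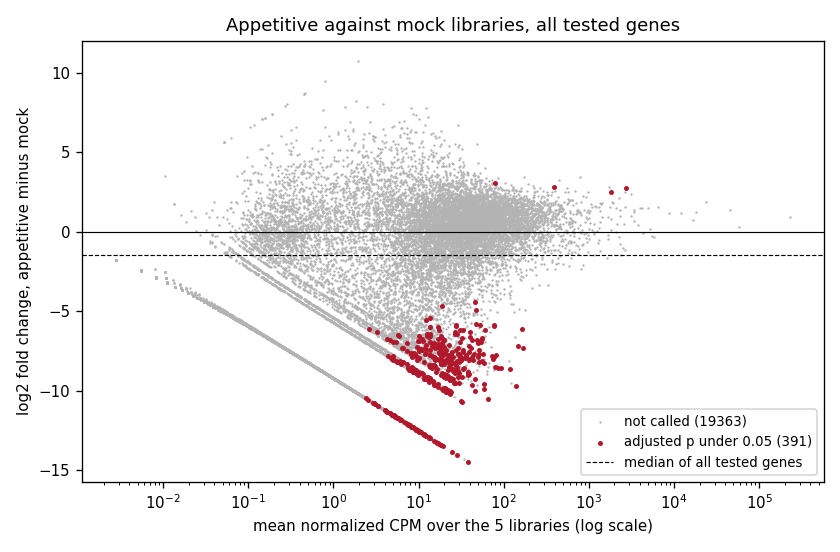
Log2 fold change (appetitive minus mock) of the 19754 genes tested against their mean normalized CPM over the 5 libraries (log scale). The 391 called genes are in red, with 4 above and 387 below 0, and the dashed line is the median of all genes tested, -1.45.

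Ptgds, Josd2, Cryab and Snhg20 rose in the appetitive libraries. Ptgds (mm10, chr2:25466709-25470046, minus strand) encodes lipocalin-type prostaglandin D synthase, made in brain by oligodendrocytes, meninges and choroid plexus. It stood at 3150 and 8110 CPM in the appetitive libraries against 890, 757 and 807 in mock (mean ± SD 5630 ± 3507, n = 2, and 818 ± 67.2, n = 3), a log2 fold change of 2.78 ± 0.54 (adjusted p = 0.0349). Josd2 (chr7:44467980-44471662, plus strand) encodes a deubiquitinase of the Josephin family, with 679 and 912 CPM against 101, 141 and 99.3 (log2 fold change 2.80 ± 0.57, adjusted p = 0.0382). Cryab (chr9:50751325-50756636, plus strand) encodes αB-crystallin, a small heat shock protein abundant in oligodendrocytes and astrocytes. Its values were 3122 and 4122 CPM against 705, 838 and 412 (2.47 ± 0.52 on the log2 scale, adjusted p = 0.0405). Snhg20 (chr11:117076008-117078955, plus strand) is a long noncoding RNA that hosts a small nucleolar RNA, and it was the only called higher gene that is not protein-coding, named after its values were seen. It stood at 123 and 208 CPM against 18.5, 24.6 and 15.3 (log2 fold change 3.09 ± 0.69, adjusted p = 0.0494). For each of these genes both appetitive libraries exceeded all mock libraries. Snhg20 lay just under the threshold. With library size alone as scaling none of the 4 was called, with adjusted p between 0.065 and 0.0878. Without appetitive 2 none of the 4 was called either (adjusted p from 0.0507 to 0.0923), and the log2 fold change of Ptgds was then 1.74. Cryab overlaps Hspb2 in the annotation, Josd2 overlaps Mir7052 and Snhg20 overlaps Gm26083 and Mir6516, and reads were counted without strand.

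Another 9 protein-coding genes were next in order of p without reaching the threshold. They were Ddx17, Ift43, Ypel3, Grb14, Car2, Cfl2, Dnajc17, Acot7 and Scnm1, with log2 fold changes from 2.28 to 4.07 and adjusted p from 0.0517 to 0.0722. Ddx17, an RNA helicase of splicing and microRNA processing, stood at 261 and 254 CPM against 28.6, 35.8 and 37.4 (log2 fold change 2.93 ± 0.67, adjusted p = 0.0517). Car2, the carbonic anhydrase of oligodendrocytes and choroid plexus, stood at 2901 and 9244 CPM against 1344, 1161 and 990 (2.38 ± 0.59 on the log2 scale, adjusted p = 0.0634). Cfl2, a cofilin that severs actin filaments, stood at 501 and 742 CPM against 141, 149 and 95.1 (2.28 ± 0.57 on the log2 scale, adjusted p = 0.0659). Dnajc17, a co-chaperone linked to splicing, had the largest difference among the 9, with 100 and 51.1 CPM against 3.03, 6.25 and 4.19. The groups did not overlap for any of the 9, except that Car2 overlapped when scaled by library size alone.

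The genes that fell were present in every mock library and nearly absent from both appetitive libraries. Of the 387, 385 were protein-coding. In the annotation 217 of them overlap another gene, 183 a gene on the other strand, and with unstranded counting such genes cannot be told apart. At most 3 counts were found in each appetitive library for 288 of them, and 0 counts in both for 82. Of the 387, 22 reached 1 CPM in an appetitive library. Their mean level in mock ranged from 3.997 to 284 CPM with a median of 26.1 CPM. All 387 had both appetitive values below all mock values, a pattern that 7689 genes (38.9%) of all those tested shared, against 1932 (9.78%) with both appetitive values above all mock values.

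Fbxw11 (mm10, chr11:32642724-32746816, plus strand) had the smallest p. It encodes β-TrCP2, the substrate receptor of an SCF ubiquitin ligase that degrades β-catenin and IκB. It stood at 0.547 and 0.209 CPM (7 and 4 counts) in the appetitive libraries against 162, 121 and 146 CPM in mock, a log2 fold change of -8.57 ± 1.07 (adjusted p = 0.0296). Hprt (chrX:52988137-53021659, plus strand), the purine salvage enzyme often used as a reference gene, stood at 0.235 and 0.419 CPM against 48.4, 147 and 84.1 (log2 fold change -8.13 ± 1.05, adjusted p = 0.0296). Adsl, which makes AMP and its precursor in purine synthesis, had 1 count in each appetitive library against 34.2, 32.8 and 38.3 CPM in mock. Pooled over libraries, Adsl was 582-fold lower (95% counting interval 161 to 4807, adjusted p = 0.0296). B4galt4, a galactosyltransferase of the Golgi, had 0 counts in both appetitive libraries against 30.5, 93.8 and 67.4 CPM, and was at least 272.5-fold lower in the mean when set against the floor of 3 counts in appetitive 1 (0.235 CPM).

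Others of the 12 genes with the smallest p fell in the same manner (adjusted p = 0.0296 for each in edgeR). Ccser2 stood at 0.156 and 0.471 CPM against 84.6 to 110 CPM. Slc31a1, the copper importer CTR1, stood at 0.391 and 0.314 CPM against 80.0 to 187 CPM. Arf2, a small GTPase of the Golgi, stood at 0.235 and 0.419 CPM against 50.1 to 78.7 CPM, and Sdf2l1, a chaperone partner of the endoplasmic reticulum, at 0.156 and 0.105 CPM against 20.5 to 37.4 CPM. Tmem214, Rfng and Rsph9 had 1 or 2 counts in the appetitive libraries together. Rfng, radical fringe, modifies Notch with sugar and was 407-fold lower in pooled counts (95% counting interval 113 to 3364). Rsph9, a radial spoke protein of motile cilia, was 713-fold lower with an interval from 128 to 28167. The width of these intervals shows how little 1 or 2 counts bound the difference.

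**Figure D3:**
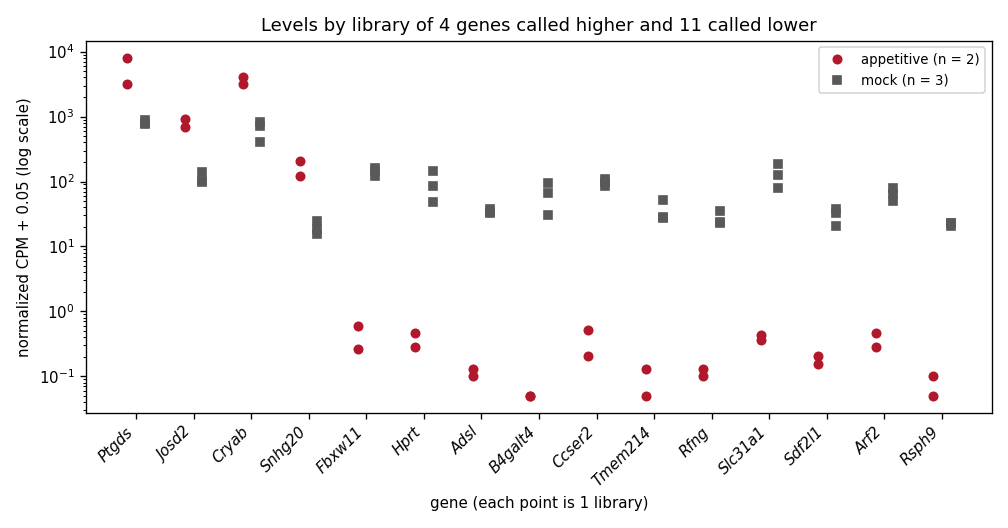
Normalized CPM + 0.05 (log scale) of the 4 genes called higher and 11 of the 12 protein-coding genes of smallest p called lower, 1 point per library, appetitive (circles, n = 2) and mock (squares, n = 3). The groups do not overlap for any gene, and all 11 lower genes lie under 1 CPM in both appetitive libraries. Points at 0.05 are libraries with 0 counts.

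The difference between the groups depended on the level of a gene. Among 4851 genes with a mean under 1 CPM over all 10 libraries the median log2 fold change was -4.82, or -0.34 with genes at 0 in both appetitive libraries set at their bound, and 81% had 0 counts in an appetitive library, whereas 40.7% had 0 in a mock library. Among 5272 genes from 1 to 10 CPM the median was -5.58, or -2.62 with genes at 0 set at their bound. From 10 to 100 CPM (8138 genes) it was -0.10, and this range held 357 of the 387 genes that fell. From 100 to 1000 CPM (1431 genes) it was 0.58 and above 1000 CPM (62 genes) 0.98, and the 4 genes that rose were in these ranges. Of the genes from 100 to 1000 CPM, 31.9% had both appetitive values above mock and 10.1% both below. The lists below differ in level, so their shares are read with this in mind.

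Oligodendrocyte genes had the highest median of the 44 lists examined. These cells wrap axons in myelin, and their transcripts for myelin proteins are among the most abundant in brain. None of the 12 genes was called, whereas 5 were called higher by DESeq2 on the 5 libraries, 4 by edgeR on the 5, 6 by edgeR without a filter and 1 by DESeq2 on all 10. In the same order these fits called 697 of 32615, 113 of 16471, 34 of 35266 and 588 of 35266 genes higher. Of the 12, 9 had both appetitive values above all mock values (9.78% of all genes and 31.9% of those from 100 to 1000 CPM), and 4 had an unadjusted p under 0.05. The median log2 fold change was 1.72 against -1.45 for all genes tested. At like levels the median was 0.58 for genes from 100 to 1000 CPM and 0.98 for those above 1000 CPM. By library size alone the groups separated for 2 of the 12. Aspa, which breaks down N-acetylaspartate to supply acetate for myelin lipids, stood at 552 and 1354 CPM against 77.3, 85.9 and 134 (log2 fold change 3.26 ± 0.91, adjusted p = 0.0828). Opalin, a membrane glycoprotein of mature oligodendrocytes, stood at 980 and 2468 CPM against 131, 167 and 183 (3.43 ± 1.22 on the log2 scale, adjusted p = 0.146). These 2 were chosen after their values were seen. The structural myelin genes were not uniform. Mbp stood at 642739 and 8740 CPM against 264543, 217442 and 23232, and Mobp at 125334 and 4411 CPM against 87995, 62773 and 9420. For both genes appetitive 1 lay above and appetitive 2 below all mock libraries. The list's share of raw counts was 38.8% and 10.5% in the appetitive libraries against 31.6%, 27.7% and 7.59% in mock, which overlap. In bulk material such as this, fewer cells of a type and less RNA per cell cannot be told apart.

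**Figure D4:**
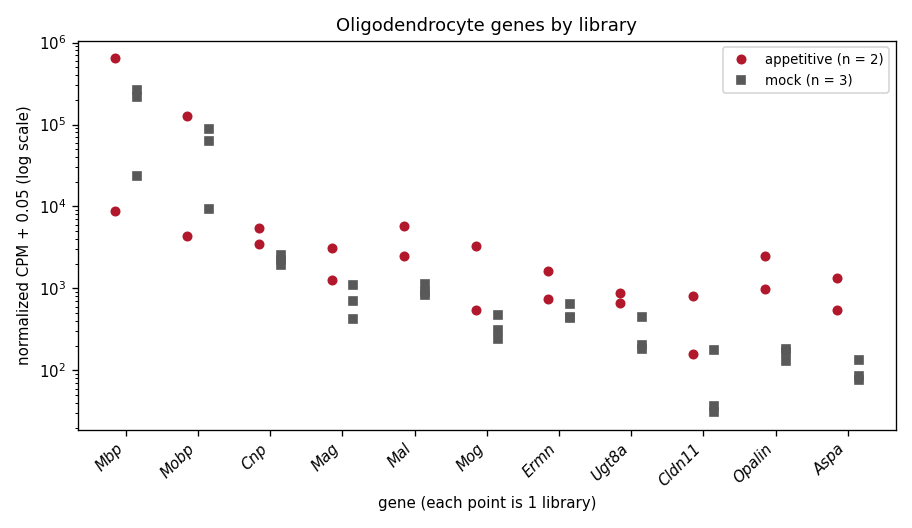
Normalized CPM + 0.05 (log scale) of 11 of the 12 oligodendrocyte genes, 1 point per library, appetitive (circles, n = 2) and mock (squares, n = 3). Opalin and Aspa show the widest separation, while the 2 appetitive values of Mbp and Mobp lie on either side of mock.

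Neuronal markers were at low levels in both groups. The 12 pan-neuronal genes summed to 911 and 256 CPM in the appetitive libraries and to between 257 and 419 CPM in mock, none was called, and their median was -1.03. Snap25, a SNARE protein of the synaptic vesicle cycle, stood at 577 and 154 CPM against 136, 117 and 44.1 (log2 fold change 1.88 ± 0.81, adjusted p = 0.192). Rbfox3, the NeuN antigen, stood at 1.17 and 0.105 CPM against 7.05, 3.02 and 5.31, and Slc17a7, the vesicular glutamate transporter of pyramidal cells, at 0.704 and 0.629 CPM against 27.9, 4.95 and 26.9. Rbfox3 and Slc17a7 were chosen after their values were seen. Nrgn, a calmodulin-binding protein of pyramidal cells, stood at 515 and 21.3 CPM against 49.1, 49.3 and 16.5 and so was high in appetitive 1 alone. Over the 10 pyramidal neuron genes tested the median was -3.17, or -2.11 with genes at 0 set at their bound, and Neurod6, Neurod2, Fibcd1 and Mpped1, chosen after their values were seen, had 0 counts in both appetitive libraries. Among 6 dentate granule genes Prox1, the transcription factor of these cells, stood at 68.2 and 316 CPM against 21.7, 8.70 and 62.6, and the median was -2.29, or -1.18 with zeros at their bound. The interneuron list differed between the appetitive libraries, with a sum of 88.5 CPM in appetitive 1 and 0.0524 CPM in appetitive 2 against 37.0 to 44.8 CPM in mock. Its neuropeptide genes Npy and Sst stood at 51.3 and 37.1 CPM in appetitive 1, above every mock library, and at 0 and 0.0524 CPM in appetitive 2. Of the 10 genes 7 had both appetitive values below mock (38.9% of all genes and 59.2% of those from 1 to 10 CPM). The same 7 had 0 counts in both appetitive libraries or 1 count in 1 of them. Pvalb, the calcium buffer of fast-spiking cells, had 1 and 0 counts against 5.97, 16.9 and 2.07 CPM (170.5-fold lower in pooled counts, 95% counting interval 30.5 to 6745, adjusted p = 0.105). The sum of the pyramidal list was 0.0389% and 0.00609% of raw counts in the appetitive libraries and 0.0101% to 0.0229% in mock.

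Stx1a, which encodes syntaxin 1A of the vesicle fusion machinery, fell. It had 1 count in each appetitive library against 7.80, 14.5 and 9.96 CPM (163-fold lower in pooled counts, interval 45.1 to 1350, adjusted p = 0.0435). In all, 2 of 20 synaptic vesicle and secretory granule genes tested were called, both lower, against 1.96% of all genes called lower. Of the 20, 7 had both appetitive values below mock and 1 above, and the share below is close to the 38.9% of all genes. No member was called among 9 AMPA and kainate receptor subunits, 6 NMDA receptor subunits, 7 metabotropic glutamate receptors, 12 GABA-A receptor subunits or 18 neurexins, neuroligins and scaffolds. Their medians were 0.78, -3.16, -6.87, -7.21 and -1.16, and with genes at 0 in both appetitive libraries set at their bound those of the metabotropic receptors and GABA-A subunits were -1.43 and -4.22. For GABA-A subunits 7 of 12 had both appetitive values below mock, against 38.9% of all genes. The share was 59.2% among genes from 1 to 10 CPM and 32.7% among those from 10 to 100 CPM. Gabrg1, a subunit of glial cells too, stood at 0 and 4.61 CPM against 163, 51.1 and 52.9 (log2 fold change -5.26 ± 1.97, adjusted p = 0.158), and Gabrb1 at 0.0782 and 0.524 CPM against 113, 44.6 and 62.9 (-7.88 ± 2.02, adjusted p = 0.0685). Receptors for neuromodulators and sex steroids were tested for 15 of 26 genes. Of these, 11 had lower appetitive values without overlap, against 38.9% of all genes and 59.2% of those from 1 to 10 CPM. The same number had 0 counts in both appetitive libraries, as had 4752 of all 19754 genes tested. None was called (median -9.06, or -3.32 with zeros at their bound).

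Among the other cell types, endothelial, perivascular macrophage and ependymal genes held calls, all lower. Of all genes tested 1.96% were called lower, and 387 of all 391 calls were in that direction. Tek, the angiopoietin receptor of endothelium, stood at 0.235 and 0.576 CPM against 60.6, 223 and 182 (log2 fold change -8.55 ± 1.70, adjusted p = 0.0363), the only call among 14 endothelial genes (median -2.0). Slc2a1, the glucose transporter of the blood-brain barrier, stood at 251 and 96.6 CPM against 334, 1199 and 603 (-2.04 ± 0.91, adjusted p = 0.205). F13a1, coagulation factor XIII A made by macrophages, had 1 count in each appetitive library against 20.7, 20.8 and 52.0 CPM (640-fold lower in pooled counts, interval 177 to 5284, adjusted p = 0.0494), the only call among 7 perivascular macrophage genes (median -7.44, or -5.01 with zeros at their bound). Tekt1 and Spef2, proteins of motile cilia, had 0 counts in both appetitive libraries. Tekt1 stood at 6.85, 13.0 and 17.8 CPM in mock (at least 53.6-fold lower, adjusted p = 0.0317) and Spef2 at 3.70, 7.6 and 17.2 CPM (at least 40.4-fold lower, adjusted p = 0.0435). They were the calls among 10 ependymal genes, whose median was -1.46. No call was made among 13 astrocyte genes (median -1.03), 9 oligodendrocyte precursor genes (-5.86, or -5.46 with zeros at their bound), 18 microglia genes (-0.37), 13 genes of activated microglia (-3.87), 9 blood leukocyte genes (-0.47), 9 mural genes (-1.56), 10 fibroblast genes (-4.26, or -3.79), 10 choroid plexus genes (-3.35), 5 erythrocyte genes (-1.51) or 10 cycling and neurogenic genes (-4.82, or -2.33). Slc1a3, the astrocyte glutamate transporter GLAST, stood at 448 and 979 CPM against 4024, 1292 and 1491 (log2 fold change -1.67 ± 0.81, adjusted p = 0.231), below every mock library. Of the 13 astrocyte genes 5 lay below all mock values and 0 above, near the 38.9% below among all genes. Csf1r, the receptor that sustains microglia, stood at 228 CPM in both appetitive libraries against 399, 372 and 2768. It was the only 1 of the 18 microglia genes below all mock values, and 0 lay above.

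Many genes of respiration lay above mock without reaching the threshold. The 86 nuclear-encoded respiratory chain genes tested had no call. Of these, 42 had both appetitive values above mock and 3 both below, the numbers being 36 and 7 by library size alone. Over all genes 9.78% lay above, and 31.9% did among genes from 100 to 1000 CPM. The median was 1.20, and 10 genes had an unadjusted p under 0.05 in the higher direction. The list took 1.84% and 1.85% of raw counts in the appetitive libraries against 1.20%, 1.40% and 1.04% in mock. Ndufv2, a subunit of the NADH-binding part of complex I, stood at 469 and 419 CPM against 170, 181 and 84.0 (1.61 ± 0.58 on the log2 scale, adjusted p = 0.148) and was chosen after its values were seen. Cox4i1 of complex IV stood at 3901 and 855 CPM against 813, 910 and 352. The 7 mitochondrially encoded genes tested overlapped between the groups throughout (median 1.36). Of 82 cytosolic ribosomal protein genes 15 lay above mock and 6 below, with a median of 0.88 and no call, and by library size alone the median was 0.19.

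For the proteasome, which degrades ubiquitin-tagged proteins, 16 of 38 subunits lay above mock and 3 below, with a median of 0.77 and beside the same shares of 9.78% of all genes and 31.9% of those from 100 to 1000 CPM above. Psmb2, a subunit of the catalytic core, stood at 337 and 500 CPM against 124, 167 and 101 (log2 fold change 1.68 ± 0.56, adjusted p = 0.128), and Psmb6, which carries the caspase-like site, at 402 and 394 CPM against 151, 203 and 93.7 (1.41 ± 0.55, adjusted p = 0.167). The only called member went the other way. Psmd2, the large scaffold of the regulatory cap, fell to 0.782 and 3.51 CPM against 134, 128 and 120 (log2 fold change -5.88 ± 1.07, adjusted p = 0.0317).

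RNA-processing factors were mixed. The RNA exosome is the 3′ to 5′ exonuclease complex of nucleus and cytoplasm. Of its 10 genes 4 lay above mock (9.78% of all genes) and none below, 3 had an unadjusted p under 0.05 in the higher direction (2.79% of all genes), and the median was 1.31. None was called in edgeR, whereas DESeq2 on all 10 libraries called 3 higher, beside 588 of 35266 genes in all. Exosc1 stood at 263 and 45.9 CPM against 22.5, 22.2 and 13.4 (log2 fold change 3.0 ± 1.05, adjusted p = 0.14), Exosc4 at 244 and 41.5 CPM against 23.2, 17.3 and 19.6 (2.83 ± 1.03, adjusted p = 0.151), and Exosc10 at 148 and 93.7 CPM against 43.7, 59.3 and 60.8 (1.15 ± 1.09, adjusted p = 0.508). Exosc9, chosen after its values were seen, stood at 156 and 49.1 CPM against 22.9, 31.1 and 18.2 (2.09 ± 0.89, adjusted p = 0.19).

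Nufip1 encodes a nuclear RNA-binding partner of FMRP that helps to assemble box C/D small nucleolar ribonucleoproteins, the particles that methylate ribosomal RNA. It stood at 95.3 and 101 CPM against 7.17, 15.8 and 12.4, and the groups did not overlap. The log2 fold change was 3.05 ± 0.94 with an adjusted p of 0.105, so that it was not called, whereas DESeq2 on all 10 libraries gave 3.33 with an adjusted p of 3.59e-05. Its partner in the same assembly, Znhit3, fell. Znhit3 had 0 and 1 counts in the appetitive libraries against 12.3, 19.7 and 10.7 CPM (400-fold lower in pooled counts, interval 71.6 to 15800, adjusted p = 0.0367). Of the 11 genes of this list 1 lay above mock and 6 below, against 9.78% and 38.9% of all genes. The median was -1.16, against -1.45 for all genes tested.

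Motile cilium genes were scarce in the appetitive libraries. Rsph1 had 0 counts in both appetitive libraries against 6.45, 13.8 and 27.3 CPM (at least 67.5-fold lower, adjusted p = 0.0317), and Rsph1 and Rsph9, both of the radial spoke, were the calls among 24 axoneme genes. Of these 24, 18 lay below mock without overlap (38.9% of all genes and 59.2% of those from 1 to 10 CPM). An unadjusted p under 0.05 was found for 16 (21.0% of all genes in the lower direction). In an appetitive library 23 had 0 counts and in both 10, as had 9670 and 4752 of all 19754 genes tested. Among genes from 1 to 10 CPM 75.8% had 0 counts in an appetitive library. The median log2 fold change of the 24 was -8.40, or -4.70 with zeros at their bound. DESeq2 called 16 of them on all 10 libraries and 17 on the 5, and edgeR on the 5 called 10. Of all genes DESeq2 called 4215 of 35266 lower on the 10 libraries and 4961 of 32615 on the 5. The edgeR fit of the 5 called 3472 of 16471 lower. No cilium gene was called under the replicate block or without any 1 mock library. The list summed to 42.9 and 52.7 CPM in the appetitive libraries against 103, 151 and 318 in mock, and part of it, like the ependymal list, marks ciliated cells of the ventricle wall, whose part in the result was not tested.

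The remaining lists held single calls or none. Lss, lanosterol synthase of the cholesterol pathway, had 0 and 1 counts against 33.8, 23.1 and 36.2 CPM (1069-fold lower in pooled counts, interval 192 to 42240, adjusted p = 0.0401). The other 19 cholesterol genes were not called, among them Msmo1, which stood at 529 and 697 CPM against 472, 285 and 275 (log2 fold change 0.83 ± 0.54, adjusted p = 0.332). Man2b1, the lysosomal α-mannosidase, stood at 0.782 and 0.314 CPM against 52.2, 47.8 and 267 (-7.81 ± 1.31, adjusted p = 0.0317), while Lamp1, the main lysosomal membrane protein, stood at 954 and 2073 CPM against 816, 754 and 469 (1.16 ± 0.71, adjusted p = 0.313). Sdf2l1 was the call among 13 genes of endoplasmic reticulum stress (median -0.56), and Cryab that among 12 heat shock genes (median 0.34). The medians of the cholesterol and lysosome lists were 0.11 and -0.59. No call was made among 22 DNA mismatch repair genes (median -3.22, or -1.63 with zeros at their bound, 12 below mock and 2 above), 16 DNA methylation genes (0.30), 12 glucocorticoid response genes (-0.99), 18 interferon response genes (0.00), 12 antigen presentation genes (-0.55), 16 chemokine ligands (-1.11) or 10 nuclear long noncoding RNAs (0.73). Of the mismatch repair genes DESeq2 on all 10 libraries and edgeR on the 5 called 9 each, all lower. Of all genes these fits called 4215 of 35266 and 3472 of 16471 lower. The 12 of 22 below mock compare with 38.9% of all genes. Malat1, an abundant nuclear RNA, stood at 2651 and 7963 CPM against 555, 1263 and 978 (2.51 ± 0.67 on the log2 scale, adjusted p = 0.0744). In all, 14 of the 726 list members tested were called, in 11 of the 44 lists. This share is close to the 1.98% called among all genes tested.

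**Figure D5:**
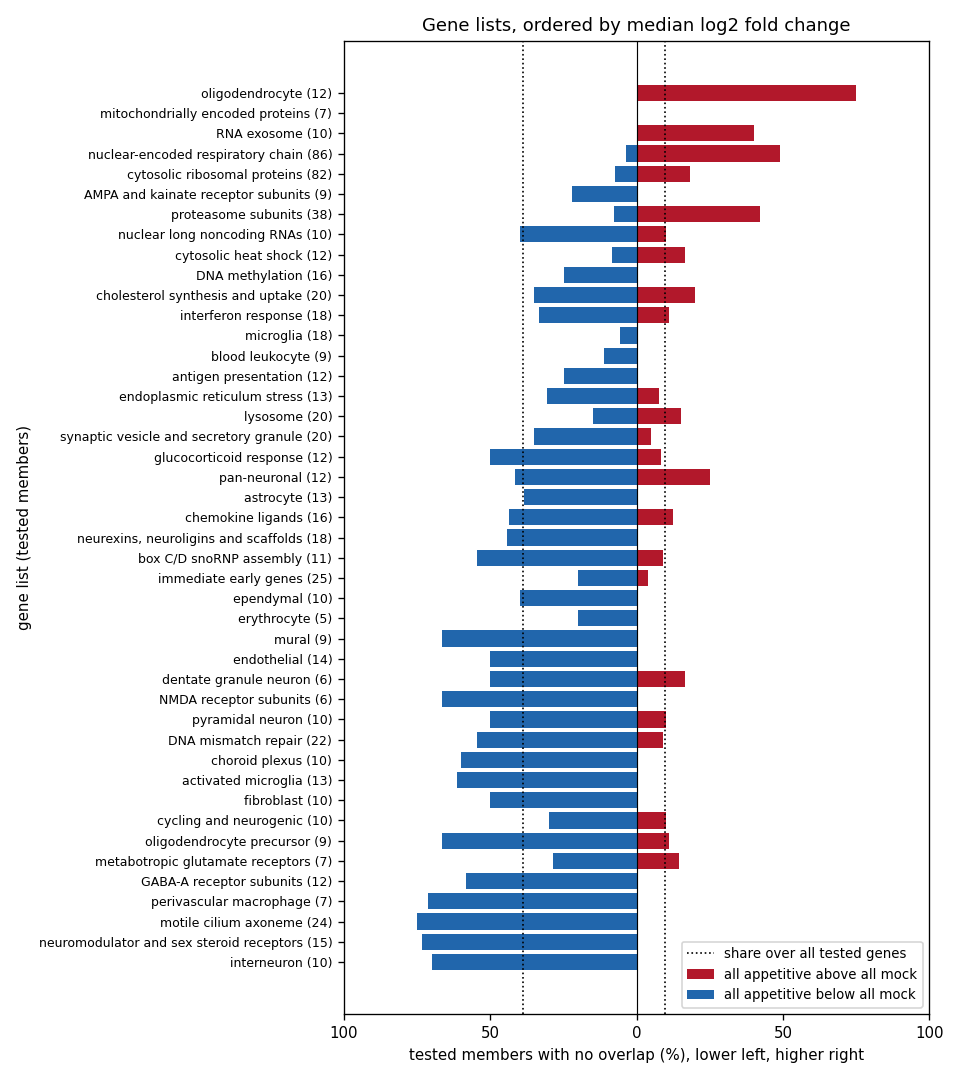
Share of tested members (%) of each of the 44 gene lists with both appetitive values above all mock values (red, right) or below (blue, left), lists ordered by median log2 fold change and the number tested in parentheses. Dotted lines are the shares over all genes tested, 9.78% higher and 38.9% lower. Oligodendrocyte genes (9 of 12) reach furthest to the right and motile cilium genes (18 of 24) furthest to the left.

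Whether a difference from mock was also a difference from aversive-tagged cells was tested directly, with the appetitive and aversive libraries made alike. Between them 356 genes (1.80%) were called, 23 higher and 333 lower in appetitive. Each comparison uses the same appetitive libraries, so their values are given side by side only. Of the 387 genes that fell against mock, 274 were also called lower against aversive, and for 368 both aversive values lay above both appetitive ones. Of the 387, 365 were under 1 CPM in both appetitive libraries, so higher aversive values were nearly given in advance. The share of all genes with both aversive values above both appetitive ones was not computed. Fbxw11 stood at 69.0 and 51.4 CPM in the aversive libraries (log2 fold change appetitive minus aversive -7.33, adjusted p = 0.024) and Hprt at 57.2 and 53.0 CPM (-7.37, adjusted p = 0.024). The 4 genes that rose against mock were not called against aversive. Ptgds stood at 1996 and 3084 CPM in the aversive libraries (1.15, adjusted p = 0.303), Josd2 at 371 and 193 CPM (1.50, adjusted p = 0.227), Cryab at 1483 and 1083 CPM (1.50, adjusted p = 0.193) and Snhg20 at 102 and 196 CPM (0.16, adjusted p = 1). Each of these aversive values also exceeded all mock values of the gene. Nufip1 and Exosc9 were nearly absent from the aversive libraries. Nufip1 stood at 0.2002 and 0.341 CPM there (log2 fold change appetitive minus aversive 8.47, adjusted p = 0.0253) and Exosc9 at 0.1001 and 0.0802 CPM (10.12, adjusted p = 0.024). F13a1 was at 0.35 and 0.22 CPM in the aversive libraries as well and was not called between the tagged groups (-2.09, adjusted p = 0.534). Without any 1 of the mock libraries no gene was called in this comparison either, although mock values are no part of it. Without appetitive 1 there were 771 calls and without appetitive 2 1460.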

How the data were processed

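Hippocampal RNA was amplified with SMART-Seq v4 and sequenced as 40 bp single reads for the appetitive, mock and aversive libraries. Whether the mock material was sorted is not settled. The authors mapped the first 40 bp to mm10 with STAR, indexed with the Ensembl GRCm38 annotation, and counted reads per gene without strand with featureCounts of Subread. The deposited values are raw counts for 53379 genes, of which 53274 matched the annotation used for names.

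Raw counts of all 10 libraries in 4 groups were fitted with edgeR 4.0.16 (R 4.3.3): filterByExpr, TMM, glmQLFit and glmQLFTest, Benjamini-Hochberg adjustment over 19754 genes, threshold 0.05. The biological coefficient of variation was 122.1%. Normalized CPM uses effective library sizes, and 3 counts were taken as the floor. Bounds are set against the floor of appetitive 1. Pooled ratios for genes with 1 to 3 appetitive counts carry exact 95% conditional intervals. Depth ranged from 16968588 to 49880042 counts in the 5 libraries. The code was tested on simulated data with a smaller spread between libraries than these data have. That test therefore does not cover performance at the spread found here.

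Named were the 12 protein-coding genes of smallest p in each direction, in each list up to 6 called members and the 3 of highest mean, and Nufip1 and Fos. Genes outside this rule are marked in the text. The members and lists were chosen with earlier results of these data known. Alternatives were DESeq2 1.42.0, other scalings, filters, subsets, a replicate block and leaving out libraries. The transgenes were not analysed here, and some genes that this rule names are not reported here.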

Additional observations from a re-analysis of the deposited data

Results flagged for a closer look

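The direct comparison of appetitive with aversive libraries called 356 genes, that is, genes whose difference from mock is not the same in the 2 tagged groups. Among the genes named above, the log2 fold change appetitive minus aversive was positive for Nufip1 (8.47) and Exosc9 (10.12). It was negative for Adsl (-9.52), Arf2 (-7.82), B4galt4 (-13.79), Ccser2 (-8.27), Fbxw11 (-7.33), Hprt (-7.37), Man2b1 (-6.97), Rfng (-8.88), Sdf2l1 (-8.88), Slc31a1 (-8.03), Tmem214 (-10.99) and Znhit3 (-9.83). The same held for the cilium genes Rsph1 (-14.81), Rsph9 (-10.45), Spef2 (-12.47) and Tekt1 (-13.29), for the synaptic gene Stx1a (-9.06), for the endothelial gene Tek (-8.62), and for Nefl (-7.92), a neurofilament of axons chosen after its values were seen. Values for genes with 0 to 3 appetitive counts depend on the prior count of the fit and are not bounds. Without any 1 of the mock libraries none of these 356 calls remained at the adjusted threshold. Groups of 2 and 3 libraries are too small for a test of single outlying libraries.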

How the results depend on the processing

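The number of called genes changed with the processing and their direction did not. Against mock, where 391 genes were called, DESeq2 called 4803 on all 10 libraries and 5658 on the 5, edgeR on the 5 libraries 3585, without a filter 1124, and with RLE size factors 260. A fit of the 7 libraries of the same kit called 0 (smallest adjusted p 0.125, 439 higher and 4613 lower at an unadjusted p under 0.05). Leaving out 1 library gave 0 to 1426 calls. All 391 genes kept their sign in all 15 alternatives. Both appetitive values of each lay beyond all mock values, so a kept sign was nearly given in advance. At the study's threshold, 814 and 639 genes passed in DESeq2 on 10 and 5 libraries and 0 in every edgeR fit. Against aversive, where 356 were called, DESeq2 gave 3986, no filter 1270, the 7 libraries 0, and leaving out 1 library 0 to 1460. The mean number of genes detected per library was 14401 (appetitive) and 24913 (mock), 13710 in appetitive after thinning, and 8290 and 17074 at a minimum of 10 counts. The cause of these differences was not tested.

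With a replicate block, that is, pairing libraries by their number, 0 genes were called in the fit of 10 (against mock and against aversive) and 2 in the fit of the 5. Whether the numbers pair the libraries was not settled. Deviations of same-numbered appetitive and mock libraries from their group means correlated with r = 0.0269 and -0.0122. The deviations of 2 appetitive libraries from their own mean mirror each other, so these values cannot decide it. The sign changed for Fos with library size alone (-0.34), a filter of 10 counts (0.00), the block in the fit of 10 (-0.50) and leaving out mock 1 (-0.48) or appetitive 2 (-0.40), the leave-out range being -0.48 to 0.32. It changed for Mbp under the block (-0.88 and -1.64) and without appetitive 1 (-4.51, leave-out range to 1.71), for Mobp with library size alone (-0.60), under the block (-1.25 and -1.63), without mock 3 (-0.19) and without appetitive 1 (-3.84, leave-out range to 1.00), for Nrgn without appetitive 1 (-1.08, leave-out range to 3.54), and for Sv2a under the block (-1.18 and -3.48), without mock 2 (-0.03) and without appetitive 2 (-14.71, leave-out range to 1.23). Npy (2.44) changed sign under the block in the fit of the 5 (-1.95) and without appetitive 1 (-10.92, leave-out range to 3.24), and Sst (2.41) under the block (-0.98 and -1.26) and without appetitive 1 (-6.21, leave-out range to 3.20).

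The adjusted p of the genes that rose reached from 7.63e-05 to 0.472 for Josd2, 0.000185 to 0.472 for Ptgds, 0.000883 to 0.472 for Cryab and 0.000293 to 0.472 for Snhg20, with 7, 7, 6 and 5 of 15 alternatives under 0.05. The 2 appetitive libraries share few low genes, and the intervals given for genes at 1 to 3 counts cover counting error alone. Such intervals do not cover the disagreement between the 2 appetitive libraries.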
